A study of Callithrix jacchus and Rattus norvegicus and Loxodonta africana with 31 samples.

Results

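The genes described here encode subunits of the receptors for glutamate, GABA, glycine and acetylcholine, together with the metabotropic glutamate and GABA-B receptors. They were chosen by gene name in the tables of the marmoset and the rat. The rule itself uses no values, although it was set with earlier results of these data known. It gave 38 of 19681 marmoset genes and 58 of 20486 rat genes. The 38 marmoset names all occur among the 58 rat names, and another 19 marmoset receptor genes carry a name only in the reference gene table and were kept apart. The study sequenced RNA from several tissues of several mammals for a survey of Y chromosome genes, and its tables give each gene's level in FPKM, a fragment count scaled by transcript length and library size, so that levels of different genes can be set side by side. In each species the somatic tissues came from individual 1 of either sex, untreated as far as the labels say, with no strain, genotype or age given. Each table has a female and a male column for brain, heart, kidney and liver, a male testis column and a female ovary column. The labels list a frontal cortex and a cerebellum sample for each animal, while the tables hold a single brain column per sex, so the region or regions behind that column are not given. The labels list 3 marmoset testis samples from 2 males for the single testis column. It was taken as the authors' value for them, although how the samples were combined is not given. The other columns stand for 1 animal each. A tissue is thus 1 female and 1 male, sex and animal cannot be told apart, and the p-values measure the spread between these animals only.

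Ionotropic glutamate receptors (AMPA, kainate and NMDA types) are cation channels that carry most fast excitation in the brain, and metabotropic glutamate receptors act through G proteins. GABA-A and glycine receptors are chloride channels that carry fast inhibition, and GABA-B receptors are their G protein-coupled counterpart for GABA. Nicotinic receptors are acetylcholine-gated cation channels, with one set of subunits in neurons and another in skeletal muscle, where the gamma subunit of the fetal receptor is replaced by epsilon after birth. All channel types are assembled from several subunits, so which subunit genes are transcribed sets which receptors a tissue can build.

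Summed marker levels for heart, kidney, liver, ovary, male germ cells and neurons were highest in the tissue the labels name. Neuronal marker genes summed to 809 and 705 FPKM in the female and male marmoset brain columns against 7.88 to 20.3 in the heart, kidney and liver columns, and to 1269.5 and 1428 in rat brain against 0.312 to 8.36. All 4 brain columns held cortical as well as cerebellar neuron markers, and the rat columns differed in their balance, as described with the sexes below. In the marmoset testis column the late germ cell genes TNP1 and ACR stood at only 0.169 and 0.0544 FPKM while DDX4, a marker of the germ line, stood at 29.8 and the Sertoli cell gene SOX9 at 26.9. In rat testis TNP1 reached 3396 and ACR 169 FPKM. The albumin gene ALB was listed at 0 in every liver column, so a listed 0 need not mean that a gene was silent. Read depth is unknown, since no counts accompany the FPKM.

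Most receptor genes were brain genes in both species. Of the 38 marmoset members, 29 reached 1 FPKM in at least 2 of the 8 paired columns and were tested, and 25 of these were higher in brain than in the mean of heart, kidney and liver (limma, adjusted p under 0.05 and a difference of at least 1 on the log2(FPKM + 1) scale); 15.7% of all 15100 tested genes were. In the rat 37 of 58 were tested and 35 were higher in brain, against 17.3% of 14560 genes. These counts describe only members with enough signal: 21 of the 25 marmoset genes and 31 of the 35 rat genes had no heart, kidney or liver column at 1 FPKM, so they entered the test through brain alone. Lower levels in brain were called for 0 marmoset members (21.4% of all genes), with CHRNB4 at -0.73 (limma, adjusted p = 0.0118), the 1 member with an unadjusted p under 0.05, short of the required difference, and for 1 rat member, Chrne (25.7% of all genes). Both brain columns lay above all 6 heart, kidney and liver columns for 26 of 29 tested marmoset members (17.9% of all genes) and 35 of 37 rat members (19.0%). The median difference was 2.86 over the tested marmoset members and -0.34 over all tested genes, and 3.03 and -0.28 in the rat. In bulk tissue, fewer cells of a type and less RNA per cell cannot be told apart. Differences on this scale understate the change of low genes.

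**Figure D1:**
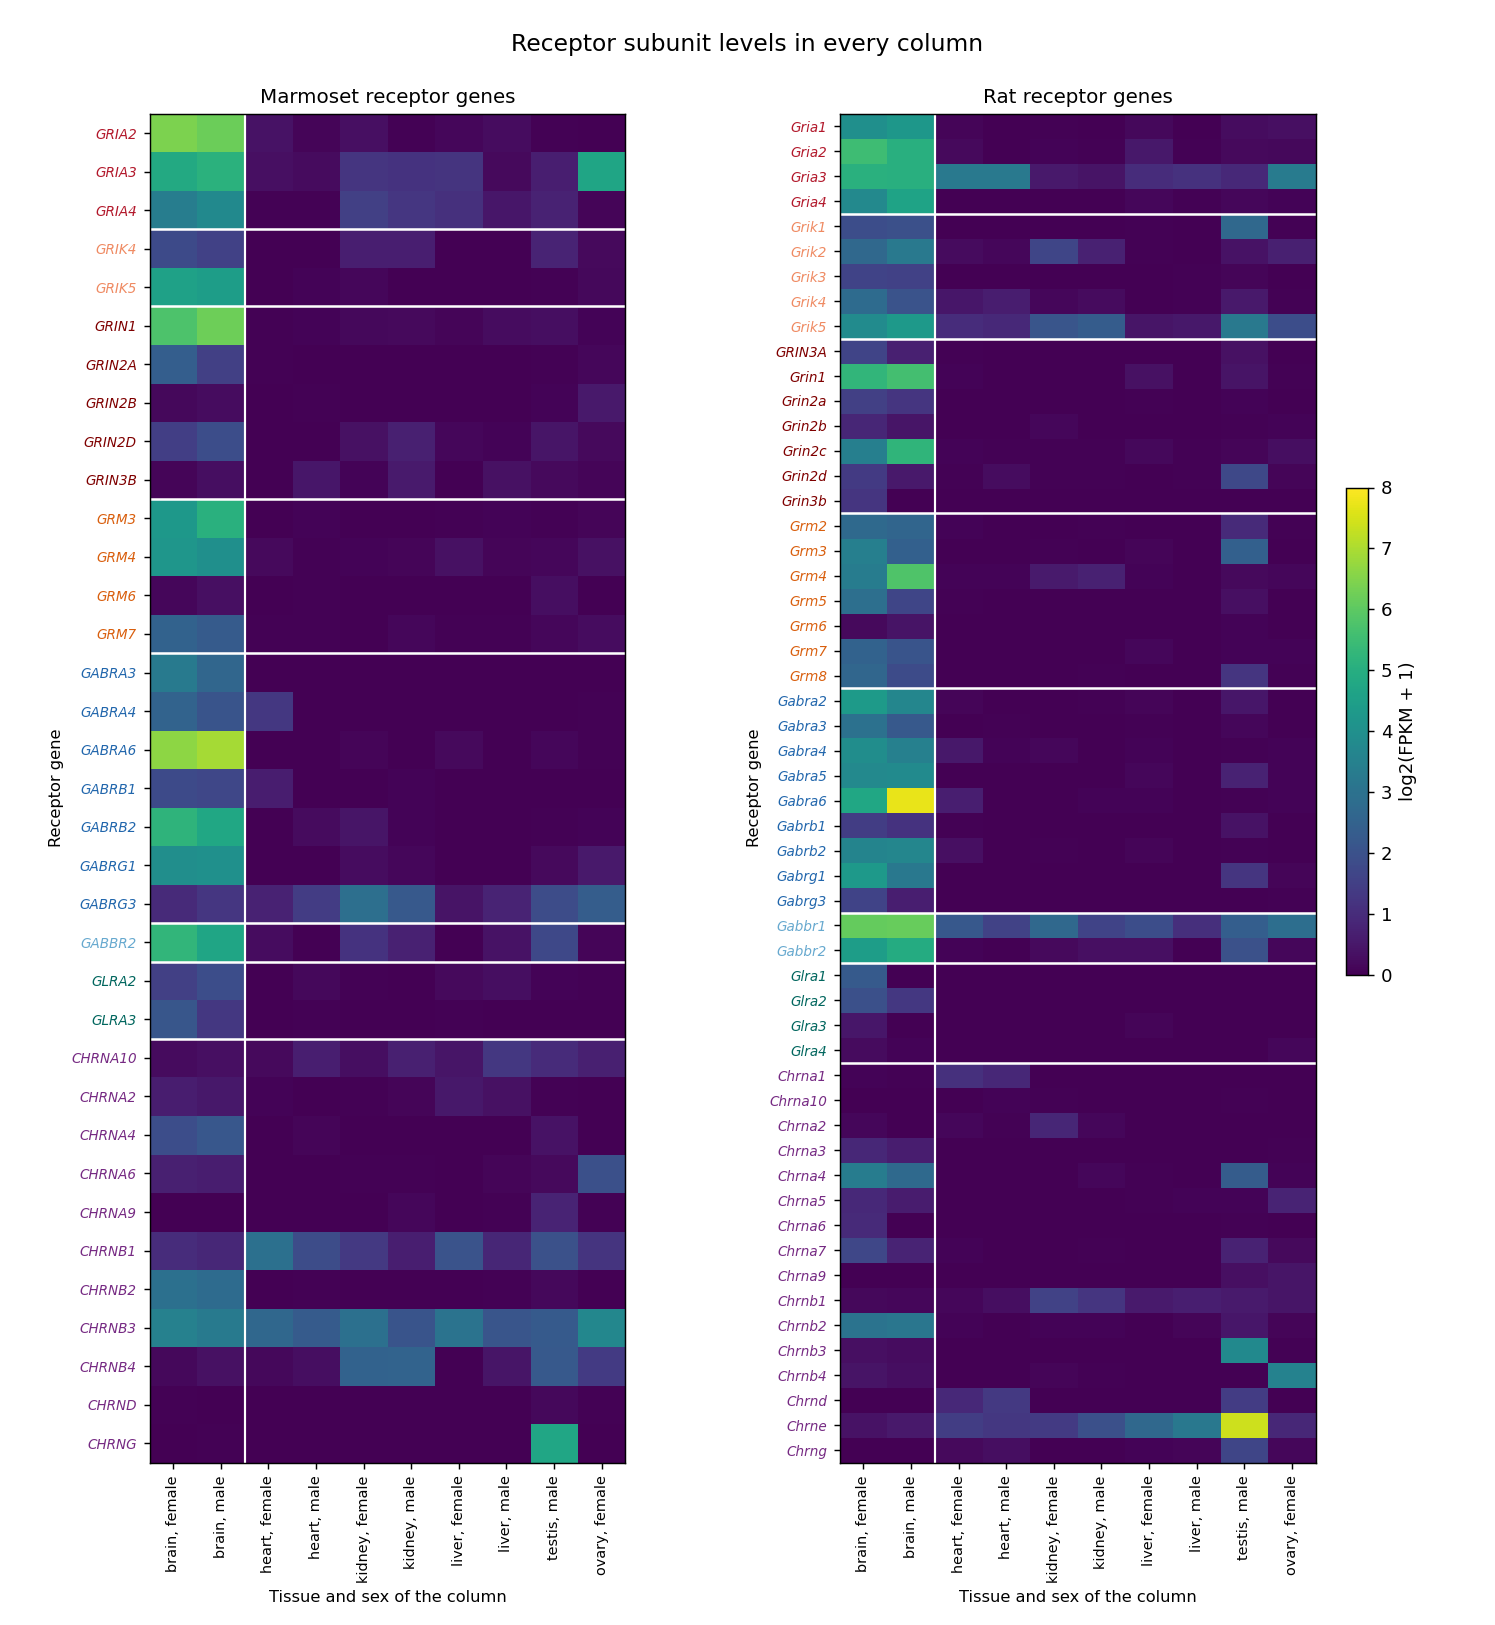
Level of each receptor gene (rows, coloured by family) in each tissue and sex column, as log2(FPKM + 1); a few genes are not shown. The brain columns at the left of each panel are the bright ones; rat Chrne in testis (166 FPKM) and marmoset CHRNG in testis (25.5 FPKM) stand out on the right.

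The AMPA receptor subunits were among the most abundant members, and all of those in the tables were higher in brain. Marmoset GRIA2, the subunit whose RNA editing makes the channel impermeable to calcium, stood at 85.2 FPKM in the female and 72.5 in the male brain column, 0.0365 to 0.323 in heart, kidney and liver, 0.0416 in testis and 0.0167 in ovary. Rat Gria2 stood at 44.4 and 31.7 FPKM in brain, 0.018 to 0.416 in heart, kidney and liver, 0.163 in testis and 0.124 in ovary. The brain columns were separated from every other column in both species, by 6.10 ± 0.19 (SE) in the marmoset (adjusted p = 1.10e-05) and 5.12 ± 0.20 in the rat (adjusted p = 3.08e-06). GRIA3, another AMPA subunit, was at 28.2 and 33.7 FPKM in marmoset brain and 33.1 and 32.1 in rat brain, and unlike GRIA2 it had levels elsewhere that are given with the other tissues below. GRIA4 was lower, at 9.38 and 13.0 FPKM in marmoset brain and 12.6 and 23.97 in rat brain, with 0.0226 to 1.86 in the marmoset's and 0 to 0.114 in the rat's heart, kidney and liver. Rat Gria1 was at 14.8 and 17.7 FPKM in brain. GRIA2 thus made up the largest share of AMPA subunit FPKM in the marmoset (62.0% in the female and 55.6% in the male brain column, with GRIA1 taken from the reference table names), while rat Gria2 (42.4% and 30.1%) and Gria3 (31.5% and 30.4%) were closer together.

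Among the kainate receptor subunits, GRIK5, which forms channels only together with GRIK1 to GRIK3, was highest in rat brain at 13.5 and 19.2 FPKM. Grik2 followed at 5.47 and 8.43 and Grik4 at 5.90 and 3.12 FPKM. All 5 rat kainate genes were higher in brain, by 1.57 (Grik3) to 2.88 (Grik5). In the marmoset the entry named GRIK5 was at 22.9 and 20.9 FPKM in brain and at most 0.125 in any other column, a difference of 4.48 ± 0.14 (adjusted p = 1.10e-05). Its identity is uncertain, because the reference table calls the same identifier GRIK2 and gives the name GRIK5 to another gene, which was at 14.0 and 20.1 FPKM in brain and 2.49 to 15.2 in heart, kidney and liver. Marmoset GRIK4 was at 2.50 and 1.90 FPKM in brain, 0 to 0.600 in heart, kidney and liver, 0.739 in testis and 0.142 in ovary.

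The NMDA receptor genes were led by GRIN1, the subunit that every NMDA receptor contains. It was at 53.1 and 73.6 FPKM in marmoset brain against 0.0368 to 0.235 elsewhere, and at 37.4 and 47.7 in rat brain against 0 to 0.338. The differences were 5.85 ± 0.19 (adjusted p = 1.10e-05) and 5.35 ± 0.17 (adjusted p = 2.35e-06), and no other column came near the brain columns. The GRIN2 subunits, which bind glutamate and set the channel's kinetics, were lower. GRIN2A was at 4.21 and 1.85 FPKM in marmoset brain and 1.88 and 1.35 in rat brain, and GRIN2D at 1.82 and 2.68 and at 1.54 and 0.461. GRIN2B, known as a forebrain subunit, stayed under 1 FPKM in every column of both species (brain 0.128 and 0.201 in the marmoset, 0.830 and 0.380 in the rat). GRIN2C, known from cerebellar granule cells, was the highest GRIN2 gene in both species. Rat Grin2c was at 9.98 FPKM in the female and 36.7 in the male brain column, which is 70.1% and 94.4% of the summed GRIN2 FPKM of those columns. Marmoset GRIN2C, which carries its name only in the reference table, was at 14.8 and 19.3 FPKM, or 70.6% and 80.3% of that sum. Of the glycine-binding GRIN3 subunits, GRIN3A was at 2.00 and 2.75 FPKM in marmoset brain, where only the reference table names it. Rat GRIN3A was at 2.15 and 0.621 and Grin3b at 1.35 and 0.0113 in brain, and marmoset GRIN3B reached at most 0.488, in male kidney.

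Metabotropic glutamate receptors spread over a wide range of brain levels. GRM3, a receptor of astrocytes and neurons that lowers cyclic AMP, led in the marmoset at 18.2 and 32.8 FPKM in brain and at most 0.0750 elsewhere (difference 4.64 ± 0.23, adjusted p = 2.57e-05). GRM4, a presynaptic receptor of cerebellar parallel fibres, was at 17.5 and 14.9 FPKM. In rat brain Grm4 was at 9.15 and 55.0 FPKM, Grm3 at 10.0 and 4.45, and Grm8 at 5.26 and 2.51. The 4 tested marmoset genes and the 7 tested rat genes of this group were all higher in brain. GRM6, the receptor of retinal ON bipolar cells, was at most 0.340 FPKM in any column of either species and was not tested. Further genes were marmoset GRM7 at 4.69 and 3.88 FPKM in brain and rat Grm2 (5.68 and 5.04), Grm5 (6.65 and 2.17) and Grm7 (4.69 and 3.24), each below 1 FPKM in every other column.

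GABA-A receptor subunits held the highest levels of all members. GABRA6, an alpha subunit of cerebellar granule cells, was at 98.1 and 119.7 FPKM in marmoset brain, 0 to 0.146 in heart, kidney and liver, 0.0988 in testis and 0.0400 in ovary (difference 6.72 ± 0.18, adjusted p = 1.10e-05). Its brain columns stood well apart from every other column, and 98.6% of all marmoset genes had a mean brain level at or below its own.

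In rat brain Gabra6 was at 26.4 and 213 FPKM. It differed from the other tissues by 6.12 ± 0.68 (adjusted p = 2.78e-04), a value that was 4.64 without the male and 7.60 without the female brain column. Of the beta subunits, GABRB2 was at 35.8 and 25.97 FPKM in marmoset brain, and rat Gabrb2 at 11.1 and 11.8. GABRB1 was the lowest beta gene in both species, at 2.44 and 2.25 and at 1.72 and 1.24 FPKM. By share of the summed alpha FPKM, GABRA6 made up 37.99% in the female and 43.6% in the male marmoset brain column, counting the genes named by the reference table. In the rat Gabra6 made up 19.6% in the female and 62.4% in the male column. Rat Gabrg1 was at 19.1 and 8.21 FPKM in brain. Further marmoset genes of the family were GABRA3 (8.80 and 5.26 FPKM in marmoset brain), GABRA4 (4.82 and 3.22, with 1.45 in female heart), and GABRG1 (14.5 and 15.1). Rat Gabra2, Gabra3, Gabra4 and Gabra5 lay between 3.72 and 19.6 FPKM in the brain columns. Rat Gabrg3, at 2.06 and 0.583 FPKM, was the family's only gene that was not tested.

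**Figure D2:**
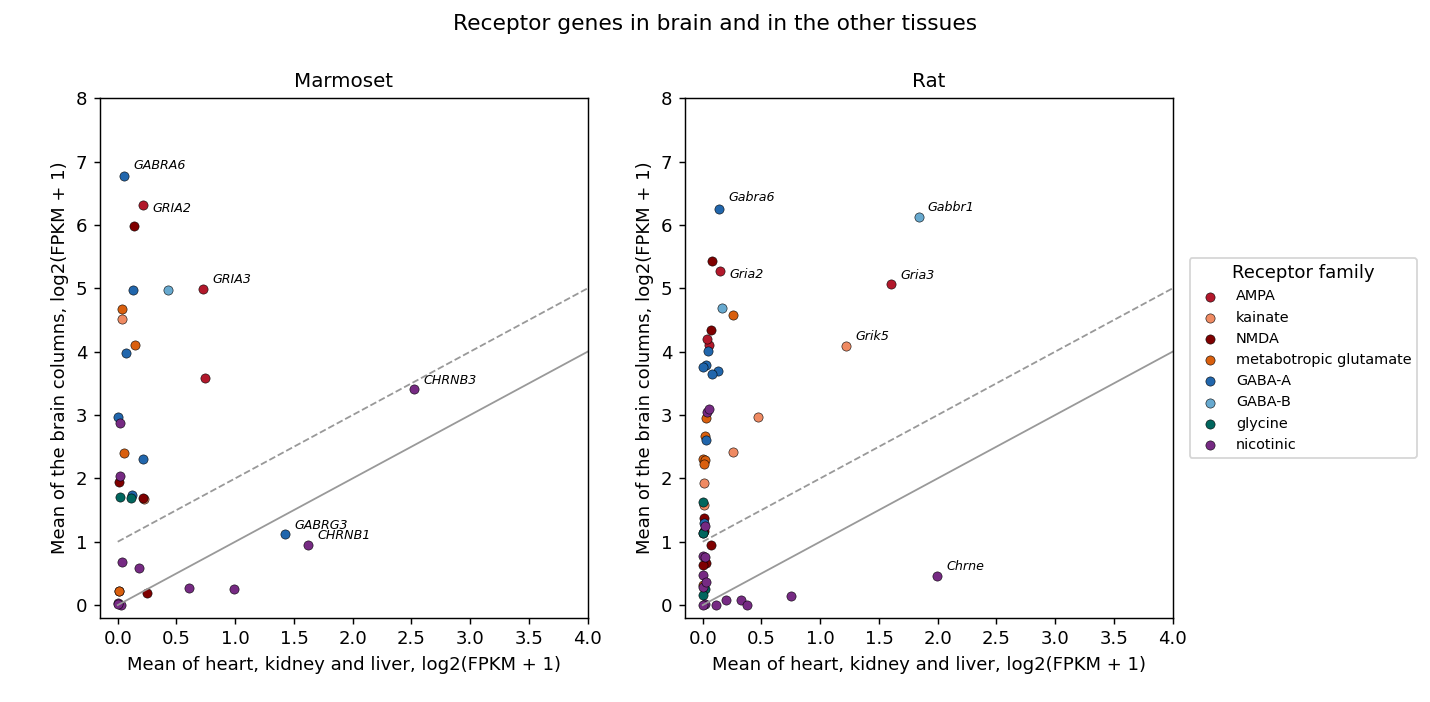
Mean brain level of each receptor gene (vertical axis) against its mean over heart, kidney and liver (horizontal axis), both as log2(FPKM + 1), coloured by family, with a few genes not shown. The solid line marks equal levels and the dashed line a difference of 1. Most genes sit at the left edge. Of the tested members, marmoset CHRNB4, CHRNB1 and GABRG3 and rat Chrne and Chrnb1 lie below the solid line.

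GABA-B receptors need 2 proteins, GABBR1, which binds GABA, and GABBR2, which couples to the G protein. Rat Gabbr1 was at 68.4 and 69.9 FPKM in brain and was detected in every other column, at 1.11 to 5.46 in heart, kidney and liver, 4.22 in testis and 6.42 in ovary (difference 4.29 ± 0.37, adjusted p = 7.98e-05). Rat Gabbr2 was at 20.9 and 29.2 FPKM in brain but only 0 to 0.266 in heart, kidney and liver, with 2.94 in testis and 0.106 in ovary. Marmoset GABBR2 was at 37.6 and 24.9 FPKM in brain, 0 to 1.26 in heart, kidney and liver, 2.30 in testis and 0.0776 in ovary. The G protein-coupling subunit was thus low outside brain in both species.

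Glycine receptor alpha subunits were low throughout. GLRA2, the subunit known from the developing brain, was at 1.85 and 2.69 FPKM in marmoset brain and 2.89 and 1.46 in rat brain, and GLRA3 at 3.37 and 1.44 and at 0.396 and 0.0194. Rat Glra1, the subunit of the adult spinal cord and brainstem, was at 3.78 FPKM in the female and 0.0134 in the male brain column. It reached 1 FPKM in that single column and was therefore not tested, as were Glra3 and Glra4 (0.173 and 0.0665 FPKM).

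Of the nicotinic receptor genes, 8 of 11 marmoset and 10 of 16 rat members had their highest column outside brain. Over all members, these included, the counts were 11 of 38 and 12 of 58. The share over all genes was not computed, so nothing is read from these counts. Some of the genes counted stayed under 1 FPKM in every column. In the brain the leading genes included CHRNA4 and CHRNB2, which together form the main high-affinity nicotine receptor. CHRNB2 was at 6.71 and 5.94 FPKM in marmoset and 7.29 and 7.78 in rat brain, and at most 0.129 and 0.386 in any other column (differences 2.86 ± 0.11, adjusted p = 1.24e-05, and 3.03 ± 0.12, adjusted p = 3.02e-06). CHRNA4 was at 2.72 and 3.55 FPKM in marmoset and 9.28 and 5.67 in rat brain. These were the only nicotinic members called higher in brain, 2 of 5 tested marmoset members and 2 of 4 tested rat members. Marmoset CHRNA7, which carries its name only in the reference table, was called too. It was at 1.07 and 1.99 FPKM in brain (difference 1.07 ± 0.22, limma, adjusted p = 8.61e-03). Rat Chrna7, which forms receptors of its own, was at 2.26 and 0.736 FPKM in brain and was not tested. Marmoset CHRNA2, CHRNA9 and CHRND and rat Chrna2, Chrna3, Chrna5, Chrna6, Chrna9 and Chrna10 stayed under 1 FPKM in every column. Marmoset CHRNB3 had the highest nicotinic brain level of that species, 10.5 and 8.82 FPKM, but it was at 3.21 to 7.19 in heart, kidney and liver, 3.82 in testis and 12.0 in ovary, and its difference of 0.88 ± 0.36 did not pass (adjusted p = 0.0933). CHRNB3 was thus present in every marmoset column, whereas rat Chrnb3 was at 0.248 and 0.190 FPKM in brain and listed at 0 in heart, kidney and liver.

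The male and female brain columns differed little for the marmoset members and by several fold for some rat members. Of 41 rat members with at least 1 FPKM in a brain column, 4 were at least 2 times higher in the male column (among them Gabra6 8.05, Grm4 6.01 and Grin2c 3.68 times) and 10 at least 2 times higher in the female column; over all genes the shares were 4.12% and 6.85%. The 10 included Glra1, Grin3b, Grin2d, Grm5 and Chrna7. Rat Chrna6, under 1 FPKM in every column, was at 0.938 in the female brain column and listed at 0 in the male. Marker genes that are not members moved in the same columns. All 15 cerebellar neuron markers were at least 2 times higher in the male column (summed FPKM 966 against 209.8, a ratio of 4.60), and the 9 oligodendrocyte markers were all higher in the female column (561 against 3358, a ratio of 0.167). Cortical neuron markers were split, with 7 of 14 higher in the male column. Of 10 markers of autonomic neurons, some of which brainstem neurons also express, 9 were higher in the female column (summed 51.4 against 43.6 FPKM), among them TH (4.54 against 0.234 FPKM) and PRPH (8.02 against 0.284). With 1 animal a sex there is no test of these differences, sex and dissected region cannot be told apart, and the part of the marker levels in the receptor levels was not tested. In the marmoset 0 of 28 members were at least 2 times higher in the male column and 2 (GRIN2A and GLRA3) in the female column, against 9.35% and 1.84% of all genes, and the ratio of summed cerebellar markers was 1.31.

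**Figure D3:**
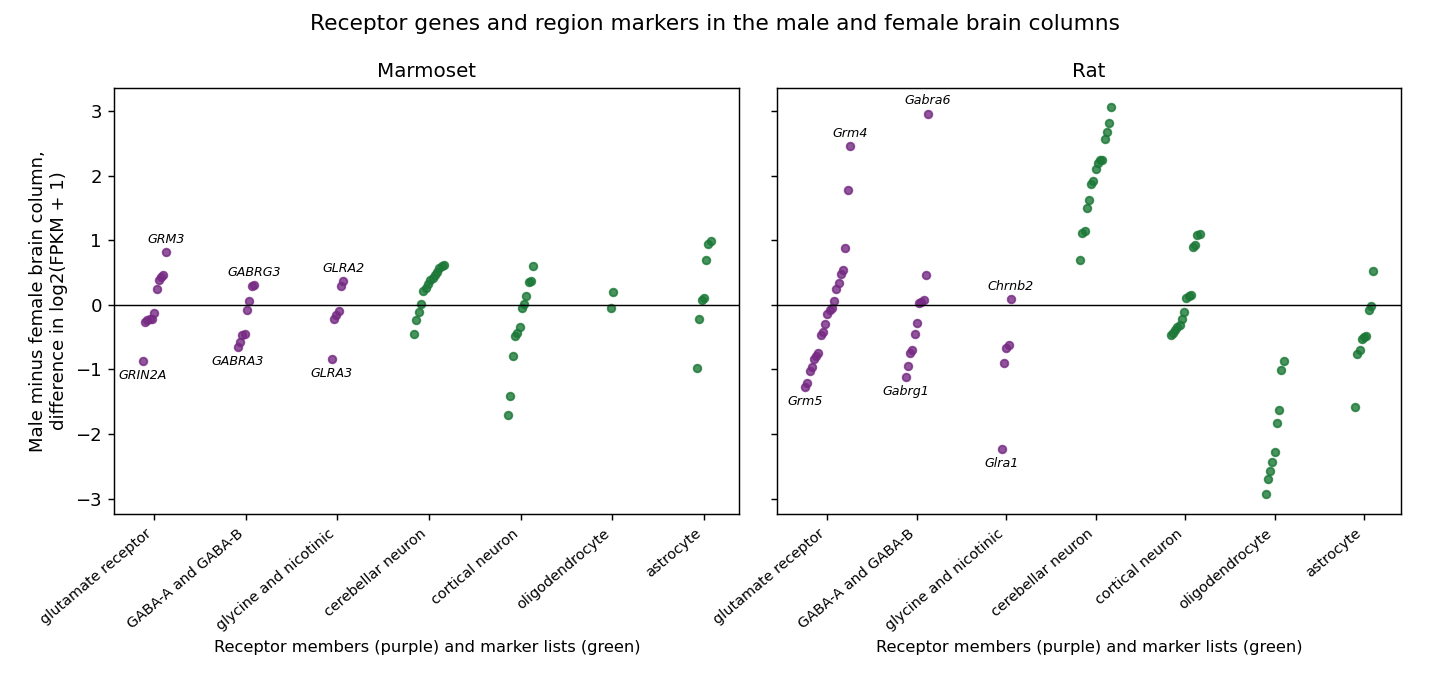
Male minus female brain column, as a difference in log2(FPKM + 1), for receptor members with at least 1 FPKM in a brain column (purple) and for non-member marker lists (green); each point is a gene and the extreme receptor genes are named, and a few genes are not shown. In the rat Gabra6 and Grm4 lie at the top with the cerebellar markers, and Glra1 lies low in the range of the oligodendrocyte markers.

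Outside the brain few members were called. In the marmoset 0 members were higher in heart (9.95% of all genes), 2 in kidney (8.76%) and 0 in liver (10.7%), each tissue being set against the mean of the other pair. In the rat these counts were 1 (15.2%), 2 (10.4%) and 1 (14.4%). Most tested members had passed the filter through brain alone, so nothing is read from their share here. At an unadjusted p under 0.05 in limma, marmoset members higher in heart and in liver numbered 1 and 0. Marmoset CHRNB4, a beta subunit of ganglionic receptors, was at 4.71 and 4.81 FPKM in female and male kidney, 0 to 0.369 in heart and liver, 0.123 and 0.278 in brain, 3.74 in testis and 1.59 in ovary. The kidney columns were above the other somatic columns and differed from heart and liver by 2.30 ± 0.17 (adjusted p = 4.00e-04). Its neighbour genes in the reference order are CHRNA5 and CHRNA3, and CHRNA3, its usual partner, was at 0.254 and 0.161 FPKM in kidney. The 8 autonomic neuron markers summed to 0.400 and 0.549 FPKM in kidney, with 4 of them listed at 0 in either column. Marmoset GABRG3, a GABA-A gamma subunit, was at 6.57 and 3.70 FPKM in kidney, 0.717 and 1.69 in heart, 0.328 and 0.735 in liver, 0.947 and 1.42 in brain, 2.63 in testis and 4.11 in ovary. Of the tested GABA-A members of both species it alone was not called higher in brain. Its kidney difference of 1.72 ± 0.30 (adjusted p = 0.0110) was 1.38 without the female kidney column and then did not pass (adjusted p = 0.0904).

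Rat Gria3 was at 8.48 and 8.39 FPKM in female and male heart, 0.472 and 0.338 in kidney, 1.01 and 1.23 in liver, 0.885 in testis and 9.00 in ovary. The 2 heart columns were nearly equal and lay above all kidney and liver columns, a difference of 2.45 ± 0.18 (adjusted p = 6.04e-05), but below the brain columns. Marmoset GRIA3 was at 0.244 and 0.177 FPKM in heart. In rat heart the neuronal markers summed to 2.59 and 0.318 FPKM, and the 10 autonomic markers to 35.5 and 29.9. HAND2, a gene also of the heart, made up 33.2 and 26.6 of the latter. In each heart column 2 of the 10 reached 1 FPKM. Listed at 0 were 4 in the female and 6 in the male column, TH and PHOX2A among them. The part of such cells in the Gria3 level was not tested. Rat Grik5 was at 3.28 and 4.00 FPKM in kidney, 1.03 and 0.902 in heart and 0.372 and 0.415 in liver (kidney difference 1.48 ± 0.20, adjusted p = 1.75e-03). Rat Grik2 was at 2.16 and 0.669 FPKM in kidney and 0 to 0.177 in heart and liver; its difference of 1.09 ± 0.28 (adjusted p = 0.0271) did not pass without the female kidney column (0.63, adjusted p = 0.149) or in 10 of the 21 other settings tried, among them each fit without a heart or a liver column.

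In brain, heart, kidney and liver the subunits of the muscle receptor had low and scattered levels. Rat Chrne was at 5.44 and 8.26 FPKM in liver, 1.56 and 2.90 in kidney, 1.74 and 1.48 in heart and 0.305 and 0.460 in brain. It was higher in liver than in heart and kidney by 1.43 ± 0.24 (adjusted p = 3.42e-03) and lower in brain by 1.53 ± 0.23 on the log2 scale. Marmoset CHRNB1 was at 6.79 and 2.63 FPKM in heart, 3.18 and 0.804 in liver, 1.498 and 0.601 in kidney and 1.00 and 0.867 in brain, with the female above the male column in each tissue. Its heart difference of 1.18 ± 0.46 did not pass (adjusted p = 0.106) and did with the animal as a replicate block, which made 3 marmoset calls in place of 2. Rat Chrnb1 was highest in kidney, at 1.97 and 1.37 FPKM, and Chrna1 in heart, at 1.14 and 0.846. Of the other nicotinic genes, marmoset CHRNA10 reached 1.47 FPKM in male liver. Skeletal muscle itself was not sampled.

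**Figure D4:**
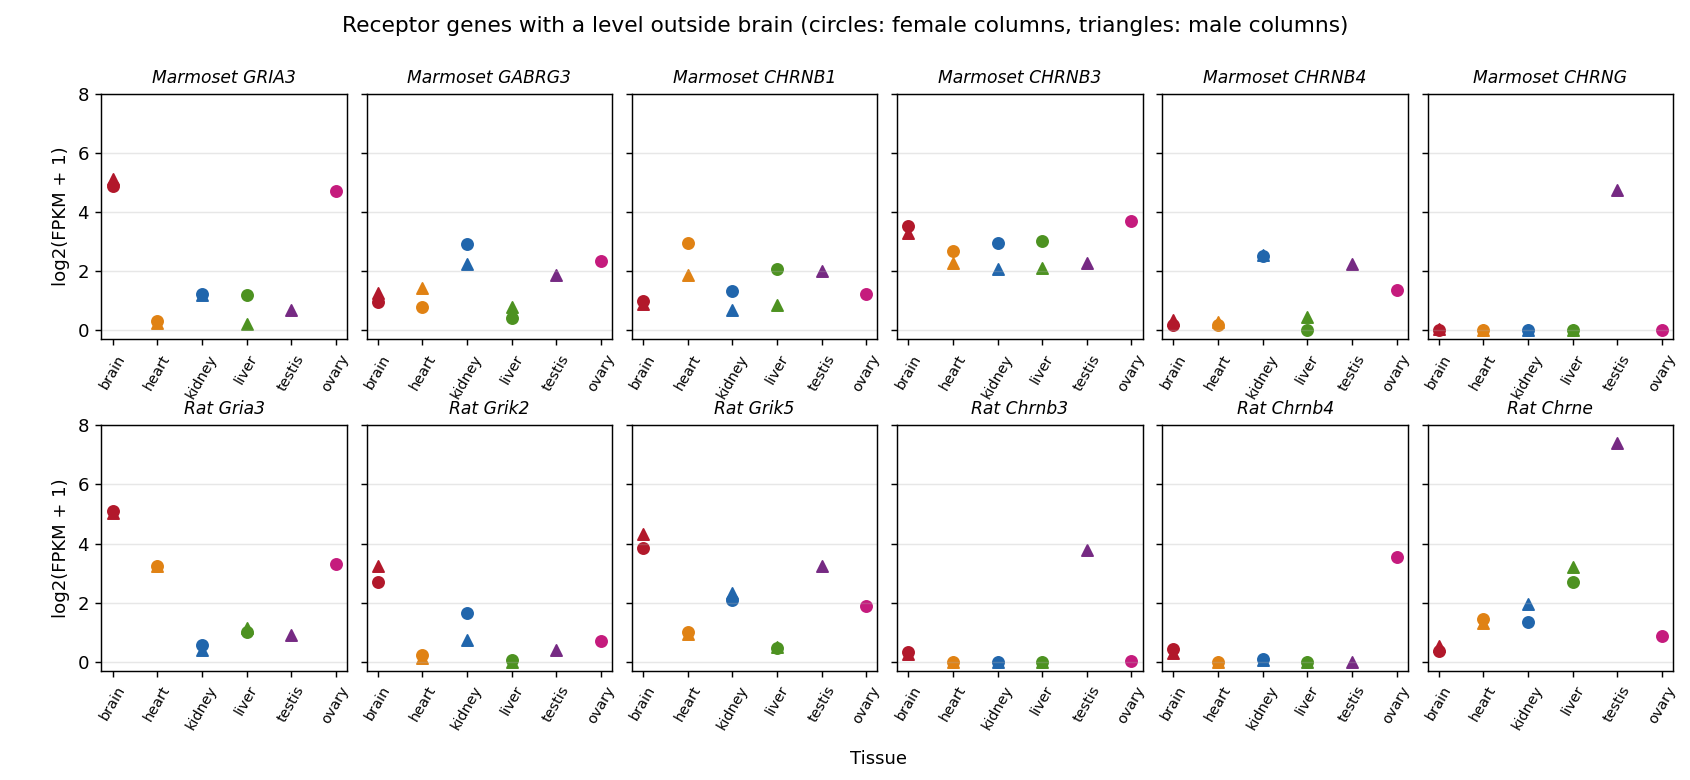
Level of 6 marmoset and 6 rat receptor genes with a level outside brain, as log2(FPKM + 1), by tissue; circles are female and triangles male columns. Marmoset CHRNB4 and GABRG3 are highest in kidney and rat Gria3 reads alike in both heart columns, while rat Chrne, Chrnb3 and marmoset CHRNG peak in testis and rat Chrnb4 in ovary.

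In the gonads, with 1 column each and so no test, a member was counted where it lay at least 1 unit of log2(FPKM + 1) above every heart, kidney and liver column. The rat testis had 10 such members of the 54 listed above 0 there or in those tissues, a share close to that of all genes (18.1%). Chrne was by far the highest at 166 FPKM in rat testis, 4.17 log2 units above its highest liver column. Chrnb3 was at 12.8 FPKM in testis against 0 listed in heart, kidney and liver and 0.0311 in ovary, and Grik1 at 5.51 against 2.72 and 2.87 in brain. The other 7 were Grm3 (4.50 FPKM in testis), Chrna4 (3.98), Gabbr2 (2.94), Grin2d (2.33), Grm8 (1.37) and Gabrg1 (1.35), which were also present in brain, and the muscle gene Chrng (2.20), which was listed at 0 in brain. The muscle subunit Chrnd was at 1.71 FPKM in testis and 0.899 and 1.49 in heart. The rat testis held strong germ cell markers, as given above, and neuronal markers summing to 17.97 FPKM; the 8 skeletal muscle markers summed to 2.56 FPKM there.

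The marmoset testis column had 1 counted member (9.71% of all genes), CHRNG, the fetal muscle subunit, at 25.5 FPKM against 0 listed in heart, kidney, liver and ovary and 0 and 0.0314 in brain. Its neighbour CHRND, also a muscle subunit, was at 0.119 FPKM in testis and CHRNA9 at 0.752. The 6 skeletal muscle markers summed to 14.8 FPKM in that column, with MYOG at 2.96, TNNT3 at 6.21 and none listed at 0, and their part in the CHRNG level was not tested. In the ovary 2 marmoset members were counted (3.23% of all genes). GRIA3 was at 25.03 FPKM, near its brain levels and 3.48 log2 units above its highest heart, kidney or liver column, and CHRNA6, a subunit of dopamine neurons, was at 2.84 FPKM. The rat ovary had 1 counted member (2.79%), Chrnb4, at 10.7 FPKM against 0 to 0.0699 in heart, kidney and liver and 0.345 and 0.225 in brain. Rat Gria3 was at 9.00 FPKM in ovary too, but its heart level kept it from being counted. The neuronal markers summed to 16.3 FPKM in marmoset and 11.1 in rat ovary, and the autonomic markers to 2.53 and 3.68. Of the latter TH and PHOX2A were at most 0.0362 FPKM in either ovary, and PRPH was at 3.06 in rat ovary. In marmoset ovary 1 of the 8 autonomic markers reached 1 FPKM, and in rat ovary 1 of the 10. The part of such cells in the ovary levels was not tested.

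The order of brain levels was similar in the 2 species. Over the 38 names found in both tables Spearman's rho between the mean brain levels was 0.907, and 0.903 over the 37 names without the uncertain GRIK5 entry; it is a description across genes, which are not independent replicates, from tables that were normalized separately. GABRA6 was first in both species among these names. The genes farthest from the common order were CHRNB3 (mean brain level 9.65 FPKM in the marmoset and 0.219 in the rat) and GLRA3 (2.40 and 0.208). CHRNB3 was highest in ovary in the marmoset and in testis in the rat, and GLRA3 in the female brain column in both. CHRNB4 was highest in kidney in the marmoset and in ovary in the rat. CHRNG was highest in testis in both.

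**Figure D5:**
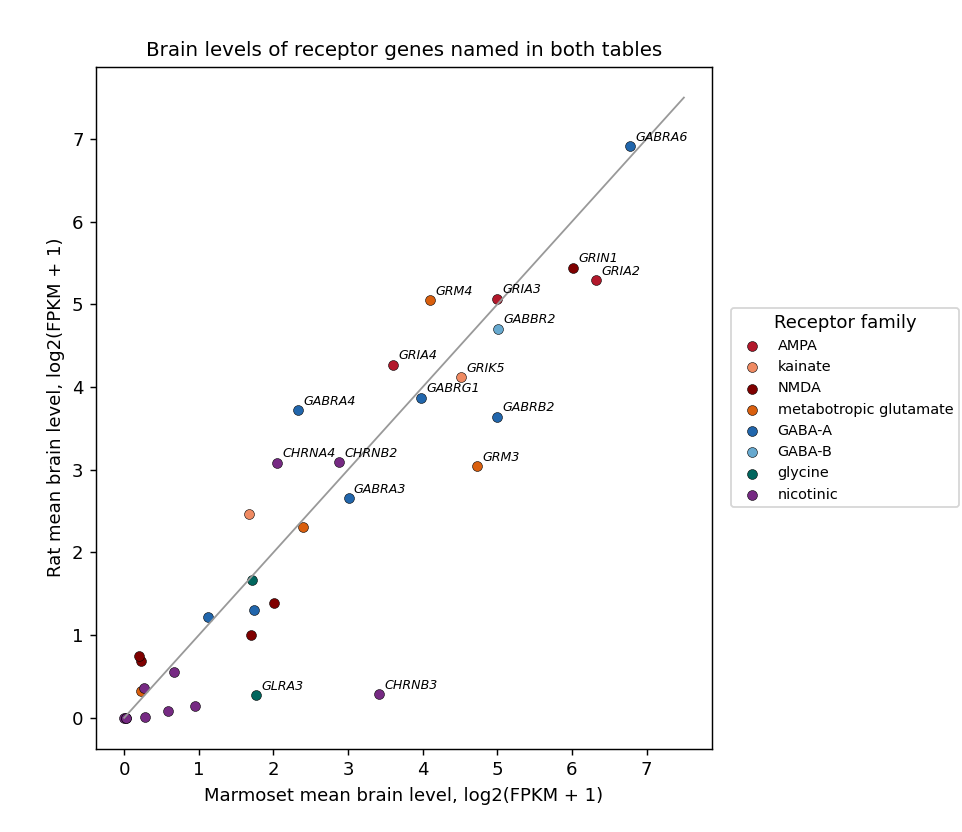
Mean brain level of receptor names found in both tables, with a few not shown, marmoset (horizontal) against rat (vertical), as log2(FPKM + 1), coloured by family; the line marks equal values, although the tables were normalized separately. Most genes follow the line. CHRNB3 lies farthest below it, followed among the genes shown by GRM3 and GLRA3.

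Other genes of the same pathways were largely higher in brain too. Over all tested genes the shares higher in brain were 15.7% in the marmoset and 17.3% in the rat. How many of the pathway genes passed the filter through brain alone was not counted. Among auxiliary and scaffold proteins of these receptors, 23 of 31 tested marmoset genes and 28 of 36 rat genes were higher in brain, led by the AMPA receptor partner CNIH2 (27.4 and 50.96 FPKM in marmoset brain) and the postsynaptic scaffold DLG4 (61.9 and 76.5) in the marmoset and by LY6H, a nicotinic receptor partner (66.7 and 86.8), in the rat. RAPSN, which clusters the muscle nicotinic receptor, was lower in brain in both species, by 2.63 ± 0.65 in the marmoset and 1.62 ± 0.20 in the rat on the log2 scale, as was HOMER2 in the marmoset. Of the genes that make or transport the transmitters, 15 of 16 tested in the marmoset and 14 of 17 in the rat were higher in brain and 0 lower; the vesicular glutamate transporter SLC17A7 was at 159 and 175 FPKM in marmoset brain and 113 and 241 in rat brain. Among further receptor subunits 4 of 6 tested marmoset genes and 5 of 6 rat genes were higher in brain, including GABRD, the extrasynaptic partner of GABRA6, at 46.5 and 65.4 FPKM in the marmoset and 9.52 and 51.8 in the rat. GABRP, the GABA-A pi subunit of epithelia, which is named here after its values were seen, was lower in brain in both species and was high in kidney, at 15.8 and 10.5 FPKM in the marmoset and 10.8 and 21.4 in the rat, against at most 0.149 in heart and liver.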

How the data were processed

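The deposited values are FPKM per gene, which the authors made with TopHat 1.4.0 and Cufflinks 2.0.0, per the submitters' processing notes; the genome build is not given in the sources used here, nor whether counting used the strand, so overlapping or near-identical genes may share reads. Members and gene lists were chosen with earlier results of these data known. Per species, genes reaching 1 FPKM in 2 or more of the 8 brain, heart, kidney and liver columns were fitted with limma 3.58.1 (R 4.3.3) on log2(FPKM + 1), with a mean-variance trend and Benjamini-Hochberg adjustment over all tested genes; a call needed an adjusted p under 0.05 and a difference of at least 1. The fit was also run on simulated data with independent columns, so that run does not cover columns paired by animal. Comparisons of heart, kidney, liver and brain share columns. The labels give the animal, and male-minus-female deviations correlated in every tissue pair (r 0.54 to 0.72 in the marmoset, 0.14 to 0.51 in the rat), so the columns are paired by animal; a replicate block was an alternative. Other alternatives changed the pseudocount, filter, scaling, variance trend and minimum difference, or left out columns. Full values are given for the 3 highest members per family and species in brain, and for members called, peaking or counted outside brain; some genes are not reported here, though counts over the members include them. All columns of values in both tables were used; the wallaby table was not used here.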

Additional observations from a re-analysis of the deposited data

How the results depend on the processing

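The counts of members higher in brain (25 and 35) stayed within 1.5 times under every setting except leaving out a brain column, which gave 3 to 25 in the marmoset and 4 to 35 in the rat. There the filter of 2 columns left only 8 and 6 members to test; with the genes that passed over all columns, an alternative chosen after seeing the data, the counts were 25 and 35. With the animal as a replicate block the counts were 25 and 35, and those outside brain 3 and 4 (main 2 and 4); it changed no other count of calls by over 1.5 times. The marmoset count in heart, kidney and liver was 6 with a pseudocount of 0.1, 4 with no minimum difference, 0 to 3 with a column left out, and 4 with the genes named by the reference table, which was added after seeing the data. The rat count was 7 with a pseudocount of 0.1 and 3 to 5 with a column left out. In the gonads a pseudocount of 0.1 gave 5 members in marmoset testis, 21 in rat testis and 4 in rat ovary; a threshold of 2 log2 units gave 5 in rat testis and 1 in marmoset ovary; without the female heart, kidney and liver columns 2 were counted in rat ovary. The kidney calls of GABRG3 and Grik2 were lost as given above. Of the members' differences that were recomputed under these settings none reversed; others, such as those of rat Grik3, of marmoset CHRNB1 in heart and of genes outside the members, were not recomputed. Depth is unknown, so levels below 1 FPKM carry no stated precision.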

Other observations

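Of the 19 marmoset receptor genes that carry a name only in the reference table, 14 were tested and 12 were higher in brain, against 15.7% of all tested genes. Several, such as GRIA1 and GABRA5, were under 1 FPKM in every heart, kidney and liver column. Those entered the test through brain alone. GABBR1, the GABA-binding partner of GABBR2, was at 113 and 104 FPKM in the female and male brain columns and 3.87 to 16.5 in heart, kidney and liver, so as in the rat it was present in every tissue. GABRA2 was at 29.6 and 27.7 and GRIA1 at 14.6 and 11.2 FPKM in brain. CHRNA5, an accessory nicotinic subunit, was at 31.5 FPKM in female and 10.6 in male heart and 0.424 and 0.404 in brain. It was higher in heart than in kidney and liver by 3.77 ± 0.41 (limma, adjusted p = 1.16e-03) and lower in brain by 1.26 ± 0.38 on the log2 scale (adjusted p = 0.0383). Rat Chrna5 was listed at 0 in both heart columns. GRIN2C was also higher in heart than in kidney and liver, at 2.27 and 0.813 FPKM (difference 1.19 ± 0.27, limma, adjusted p = 0.0204). It was at 20.8 FPKM in the testis column, above its brain columns, while rat Grin2c was at 0.0785 in testis. GRM8 was at 15.6 FPKM in the ovary column against 4.23 and 1.58 in brain, and rat Grm8 was at 0.0299 in ovary. These testis and ovary values are from single columns and were not tested.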
